A study of Mus musculus with 16 samples.

Results

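Of the 56748 genes counted here, 39 that encode pore and auxiliary subunits of voltage-gated sodium and calcium channels were examined. They were taken by symbol: the protein-coding genes named Scn, Cacna1, Cacna2d, Cacnb or Cacng with a subunit number or letter. Cacng4 matches this rule but was left out of the set, so no statement on the members covers it. The set holds 10 sodium channel pore genes, 4 sodium channel beta subunits, 10 calcium channel pore genes, 4 alpha2delta, 4 beta and 7 gamma subunits. By their best known tissue, 21 were classed as neuronal, 9 as muscle (skeletal, cardiac or smooth) and 9 as shared, a class for genes of both or of neither. The classes are textbook labels, not measurements of these samples.

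RNA was measured by poly(A) RNA-seq of the longitudinal muscle with myenteric plexus (LMMP), microdissected from the proximal and the distal colon of male and female mice 2 to 4 weeks old. Ednrb-/- mice (HSCR), homozygous for the Ednrb tm1Ywa allele on a mixed C57BL6/J-129Sv background, were compared with Ednrb+/+ mice (WT) from the same litters, with 4 libraries for each genotype and segment (16 in all). The null allele is present in every cell of the mouse. The study calls the distal colon of these mice aganglionic, and its staining showed ganglia there that were few and small. Visible widening of the gut served to find the ganglionic part in HSCR mice, and WT mice gave the corresponding pieces. The 8 distal libraries carry the proximal colon in their tissue label and the distal colon in their title, and the title was followed. Names of libraries 1 and 2 carry 1 number in both segments and also in both genotypes, and nothing in the sources used here says which segments came from the same mouse. The p-values measure only the spread between these libraries.

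Voltage-gated sodium channels open on depolarisation and carry the upstroke of the action potential in neurons. Calcium channels of the Cav2 family (Cacna1a, Cacna1b and Cacna1e) sit at nerve terminals, where calcium entry releases transmitter, whereas Cav1.2 (Cacna1c) is the L-type channel through which smooth muscle of the gut admits the calcium that drives contraction. Beta, alpha2delta and gamma subunits do not form pores, and they set how many channels reach the membrane and how these gate.

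Markers of the tissue differed widely among libraries of one group, and some went against their labels. Between 21384372 and 45831881 reads were counted on genes per library, of which mitochondrial genes took 4.32% to 49.8%. The 10 smooth muscle markers summed to at least 27198 CPM (counts divided by depth, with library sizes scaled by TMM over the 16 libraries) in all but the library labelled HSCR proximal 2, where they summed to 4971 CPM and the 9 epithelial markers to 13605 CPM. The 12 enteric neuron markers averaged 4.81, 6.07, 7.77 and 7.42 log2 CPM in WT proximal libraries 1 to 4, 1.63, 1.77, 6.36 and 6.01 in HSCR proximal, 1.41, 4.11, 7.15 and 6.78 in WT distal and 5.35, 1.33, 0.71 and -1.02 in HSCR distal libraries. One of them, Chat, had no count in any HSCR distal library. The neuron markers summed to 608 to 3761 CPM in WT proximal, 84.2 to 2980 in HSCR proximal, 95.2 to 2532 in WT distal and 21.2 to 1314 CPM in HSCR distal libraries. Over all libraries the sums ranged from 15.3 to 13605 CPM for epithelial, 0.891 to 785 CPM for 6 enteroendocrine and 20.7 to 196 CPM for 5 adipocyte markers. Some posterior position genes went against the segment labels of both HSCR libraries 1: Hoxd13 was at 125 CPM in the library labelled proximal and at 0.615 CPM in the one labelled distal, against 0.861 to 23.9 CPM in WT proximal and 117 to 215 CPM in WT distal libraries. Hoxd12 and Hoxa13 in HSCR proximal library 1 were also above every WT proximal library. Hoxa11 went with the label there, at 29.2 CPM, against 27.9 to 29.5 CPM in WT proximal and 14.2 to 17.8 CPM in WT distal libraries. In HSCR distal library 4 Hoxd13 was at 14.0 CPM. Ednrb itself, counted over the whole gene and so not over the disrupted part alone, ranged from 11.8 to 67.1 CPM in WT and from 5.43 to 94.7 CPM in HSCR libraries, with the highest value in HSCR distal library 1. Libraries 1 and 2 of each group have names built from genotype and segment, and libraries 3 and 4 have names of 2 other forms. They were treated here as 2 name series, a division that the labels do not call a batch. Within the second series, WT proximal libraries 3 and 4 and HSCR proximal library 4 share 1 form, and the remaining libraries have the other. The 2 forms are thus uneven between the segments and between the genotypes of the proximal colon. In such whole-tissue RNA, fewer cells of a type and less RNA per cell cannot be told apart.

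Per length of gene, the set was led by subunits that do not form the pore. The authors' FPKM, which divide reads by gene length and depth, put Cacnb3, a beta subunit of neurons and smooth muscle, first at 26.5 ± 5.93 (mean ± SD over 16 libraries). Cacng7, a gamma subunit of AMPA receptors in neurons, followed at 17.3 ± 5.40 FPKM. Other leading members were Cacna2d1 (alpha2delta1, 11.4 ± 5.27) and Cacna1h (the T-type pore Cav3.2, 10.7 ± 7.02). The levels of these genes overlapped, as the SDs show. Among pore genes, Cacna1h, Scn7a (the sodium sensor Nax, 7.28 ± 6.64) and Cacna1c (5.04 ± 3.75) had the highest means, and the neuronal pore genes Cacna1b and Cacna1e averaged 1.57 and 1.56 FPKM, each with an SD above its mean. At the lower end 13 members averaged under 0.3 FPKM, down to 0.00320 for Cacna1f of the retina.

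The question of the proximal comparison is whether the ganglionic colon of HSCR mice, in which the study found ganglia by staining, differs from WT colon. In HSCR proximal libraries 1 and 2 the neuron markers summed to 84.2 and 125 CPM, below every WT proximal library, and in libraries 3 and 4 to 2980 and 2063 CPM. No member was called in the proximal colon. With edgeR's quasi-likelihood test over the 16664 genes that passed its filter on low counts, 27 of the 39 members were tested, 0 at an adjusted p under 0.05, where 0% of all genes were called. At an unadjusted p under 0.05, 3 of the 27 (11.1%) were lower in HSCR and 0 higher, beside 4.13% of all genes lower and 2.48% higher. DESeq2 called 0 members, beside 190 of 16366 genes, and edgeR's likelihood ratio test 0 members, beside 69 of 16664 genes. In each, 5 members were lower at an unadjusted p under 0.05. Of all genes, 983 of 16366 (DESeq2) and 796 of 16664 (likelihood ratio test) were lower at that p. Limma-voom with quality weights called 0 members, beside 4 of 16664 genes. It had 9 members at that p, of which 8 were lower, beside 1575 genes lower and 1372 higher. RUVr, which takes unwanted variation from the residuals, called 12 members lower with 4 factors and the likelihood ratio test, among 3561 of 16664 genes called, in a fit of 8 libraries. No tested member had groups that did not overlap, against 2.83% of all genes lower and 1.95% higher in that way.

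Neuronal and muscle subunits took different places in this comparison. All 15 tested neuronal members had a lower fitted level in HSCR. Their log2 fold changes had a median of -1.35 and ranged from -3.24 to -0.22. The 5 tested muscle members had a median of -0.12, with 4 of them lower, and the 7 shared ones -0.10, with 5 lower. The median of all genes was 0.04. A log2 fold change below -1 was found for 12 of 27 members (44.4%) and for 10.1% of all genes. Members had to pass the filter on low counts to enter these medians, and members that vary together over libraries are not independent, so no test was made of a class. Genotypes were also compared within each name series, with 2 libraries against 2. The mean log2 CPM of HSCR minus WT was -3.35 in the first and -1.10 in the second series for Cacna1b, and -2.55 and -1.25 for Scn3b. In the first series 15 and in the second 14 of the 15 tested neuronal members were lower in mean. With 2 libraries a side no test was made. The first series holds HSCR library 1, with Hoxd13 at 125 CPM against its label, and HSCR library 2, with epithelial markers at 13605 CPM.

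The 3 members lower at that p are neuronal: Scn8a, which encodes Nav1.6, the pore of axon initial segments and nodes, Cacnb4, a brain beta subunit, and Cacna2d2, an alpha2delta subunit. Scn8a was at 0.359, 22.9, 5.75 and 4.62 CPM in WT libraries 1 to 4 and at 0.824, 0.242, 1.97 and 0.565 CPM in HSCR libraries 1 to 4. WT library 1 lay inside the HSCR range and the other WT libraries above it. The log2 fold change was -3.24 ± 1.12 (SE), with a p of 0.0179 and an adjusted p of 0.747 by edgeR's quasi-likelihood test, and the exact two-sided permutation test of log2 CPM gave p = 0.114, in a design of 4 libraries against 4 that can reach 0.029 at the lowest. Leaving out 1 library gave log2 fold changes from -3.92 to -2.01, the latter without WT library 2, the highest of its group. Cacnb4 was at 2.94, 5.72, 6.08 and 6.22 CPM in WT and at 1.65, 0.622, 3.37 and 1.94 CPM in HSCR libraries, so that only WT library 1 fell below an HSCR library. Its log2 fold change was -1.49 ± 0.59 (edgeR adjusted p = 0.747, exact permutation p = 0.0571). Cacna2d2 was at 2.37, 4.62, 31.9 and 22.7 CPM in WT and 2.72, 3.49, 7.32 and 2.12 CPM in HSCR libraries, high in WT libraries 3 and 4 alone, with a log2 fold change of -1.99 ± 0.81 (adjusted p = 0.747, exact permutation p = 0.229).

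For several neuronal subunits HSCR proximal libraries 1 and 2 were lower than libraries 3 and 4. Cacna1b, the N-type pore Cav2.2 of nerve terminals (chr2:24493899-24653164, mm39), was at 1.10, 0.449, 26.4 and 21.9 CPM in HSCR libraries 1 to 4 and at 2.22, 23.9, 68.8 and 38.5 CPM in WT libraries. Libraries 3 and 4 lay within the WT range and libraries 1 and 2 below it. Scn3b, the beta3 subunit of sodium channels, was at 8.11, 21.1, 35.0 and 20.3 CPM in WT and 6.47, 0.760, 12.3 and 10.2 CPM in HSCR libraries (log2 fold change -1.52 ± 0.73, adjusted p = 0.752, exact permutation p = 0.0857). Scn2b, the beta2 subunit, was at 2.51, 11.2, 42.0 and 31.3 CPM in WT and 5.05, 3.32, 15.9 and 10.6 CPM in HSCR libraries (log2 fold change -1.33 ± 0.80, adjusted p = 0.773). WT library 1 was the lowest WT library for all of these. These 2 low libraries are the one labelled HSCR proximal 1, where Hoxd13 but not Hoxa11 was at the level of WT distal libraries, and library 2, which is rich in epithelial markers. In Cacna1e and Cacng7 library 2 alone was low. Without both, which leaves HSCR libraries of the second name series alone, the neuronal median moved from -1.35 to -0.47. An unadjusted p under 0.05 was then found for 0 of 33 tested members, beside 427 lower and 410 higher among 17798 genes. Without HSCR library 1 alone the median was -1.05 with 1 such member, which was lower, beside 500 lower among 17126 genes. Without WT library 3 it was -0.82 with 1 lower, beside 433 lower among 17103 genes.

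Other neuronal pore genes had large fitted differences with large errors. Scn11a (Nav1.9, known from sensory and enteric neurons) had means of 22.9 ± 23.1 CPM for WT and 2.48 ± 2.75 CPM for HSCR (log2 fold change -3.21 ± 1.58), and Scn9a (Nav1.7 of peripheral neurons) 21.7 ± 16.7 and 5.30 ± 5.96 CPM (-2.04 ± 1.27). Scn3a (Nav1.3) averaged 19.7 ± 16.3 and 7.81 ± 8.05 CPM (-1.35 ± 1.04). Smaller differences were fitted for Scn2a (Nav1.2, -0.81 ± 0.66) and Cacna1a (Cav2.1 of the P/Q type, -0.78 ± 0.65). The gamma subunit Cacng7 differed least among neuronal members. It was at 49.3, 35.2, 52.7 and 38.8 CPM in WT and 34.0, 8.85, 64.1 and 47.0 CPM in HSCR proximal libraries, with HSCR library 2 alone far below the rest (log2 fold change -0.22 ± 0.49).

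Muscle subunits of the proximal colon overlapped between the genotypes, and a p that misses the threshold does not show equal levels. Cacna1c, the smooth muscle L-type pore (chr6:118564201-119173851, mm39), was at 21.5, 136, 104 and 70.2 CPM in WT and 164, 5.91, 139.6 and 153 CPM in HSCR libraries. HSCR library 2, poor in smooth muscle markers, was the lowest of all 16 libraries, and the log2 fold change was 0.46 ± 0.84. Cacna2d1, its alpha2delta1 partner, was at 105, 162, 198 and 157 CPM in WT and 237, 24.6, 159 and 163 CPM in HSCR libraries (-0.11 ± 0.55), again with HSCR library 2 lowest. Cacnb2, the beta subunit of heart and smooth muscle, averaged 30.8 ± 12.3 and 28.5 ± 19.0 CPM (-0.12 ± 0.69).

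**Figure D1:**
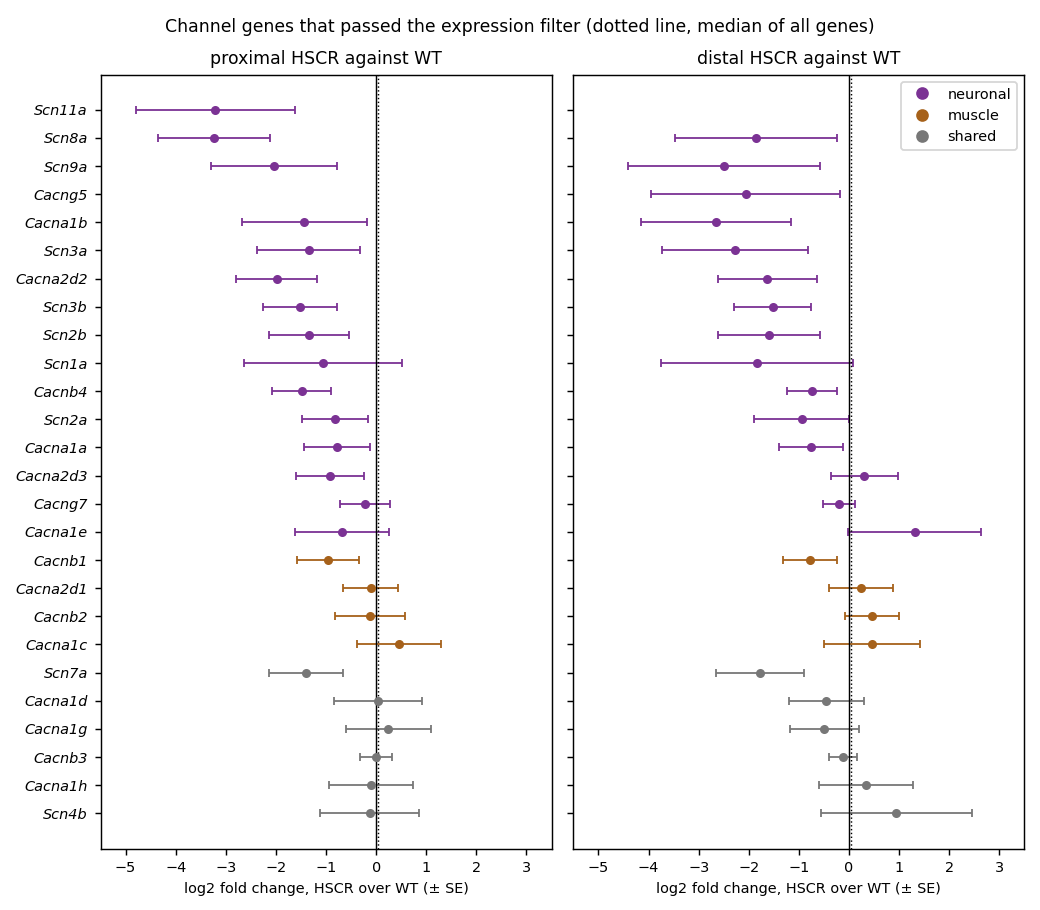
Log2 fold changes of HSCR over WT (horizontal axis, points, with SE as bars) for channel genes that passed the expression filter, in the proximal (left) and distal colon (right), with 4 libraries per group. Most neuronal genes (purple) lie left of 0 in both panels, with medians of -1.35 and -1.60, while the muscle genes shown (brown), other than Cacnb1, lie within 0.5 of 0.

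In the distal colon, where HSCR mice have few or no ganglia, 27 members were tested among 17059 genes. Again 0 were called by edgeR's quasi-likelihood test (0% of all genes). Lower levels were fitted at an unadjusted p under 0.05 for 1 of 27 (3.70%) beside 1.76% of all genes, and 0 members were higher, beside 0.879%. DESeq2 called 0 members, beside 22 of 16893 genes, with 4 lower at an unadjusted p under 0.05, beside 529 genes lower. The likelihood ratio test called 0 members, beside 7 of 17059 genes, with 2 lower at that p, beside 387 genes lower. Limma-voom called 0 members and 0 of 17059 genes, with 5 members lower at that p, beside 1022 genes lower. RUVr called 8 members, 7 of them lower, among 1570 of 17059 genes. The groups of every tested member overlapped, against 1.15% of all genes that were lower and 0.674% that were higher without overlap. Log2 fold changes below -1 were found for 11 of 27 members (40.7%), beside 7.7% of all genes. The neuronal median was -1.60 (13 of 15 lower), the muscle median 0.24 (2 of 5 lower) and the shared median -0.45 (5 of 7 lower), beside 0.04 for all genes.

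Scn7a, a sodium-sensing relative of the pore genes that is known from glia and neurons, was at 8.18, 22.0, 148 and 182 CPM in WT distal libraries 1 to 4 and 34.1, 10.1, 19.0 and 39.0 CPM in HSCR distal libraries (-1.78 ± 0.88, edgeR adjusted p = 1, exact permutation p = 0.4). Cacna1b was at 0.902, 1.18, 29.6 and 35.4 CPM in WT and 7.43, 0.511, 2.29 and 0.0685 CPM in HSCR libraries (-2.65 ± 1.50, exact permutation p = 0.229), and Scn3b at 3.57, 3.65, 23.7 and 21.2 and 8.18, 3.79, 1.84 and 3.70 CPM (-1.53 ± 0.77, exact permutation p = 0.314). In these genes WT libraries 1 and 2 stood as low as the HSCR libraries, and WT libraries 3 and 4 stood above every HSCR library. The direction within each name series was not the same for all genes. Of the 15 tested neuronal members, 9 were higher and 6 lower in mean in HSCR in the first series, and 13 were lower in the second, with 8 higher in the first and lower in the second. The mean log2 CPM of HSCR minus WT was 0.92 for Cacna1b, 0.62 for Scn3b and 0.69 for Scn2b in the first series, and -6.21, -3.10 and -4.23 in the second. Scn3a was lower in both series (-2.24 and -3.68), and Cacna1e higher in both (2.90 and 0.46). With 2 libraries a side no test was made, and HSCR library 1 belongs to the first series. With the name series as a term in edgeR's model the neuronal median was -1.13 in the distal colon. There 0 members had an unadjusted p under 0.05, beside 352 lower and 315 higher among 17059 genes. In the proximal colon the neuronal median was -1.38 with 9 members lower at that p, beside 957 lower among 16664 genes. In each, 0 members were called, beside 4 of 16664 genes in the proximal and 0 of 17059 in the distal colon.

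HSCR distal library 1 held the highest values of its group for several neuronal subunits. Scn2b was at 8.77, 1.53, 1.21 and 0.639 CPM in HSCR libraries 1 to 4, against 1.87, 2.75, 16.6 and 17.1 CPM in WT, and Scn8a at 2.57, 0.365, 0.0565 and 0.137 CPM, against 0, 0.758, 3.95 and 7.30 CPM. Position genes contradict the label of library 1, and some also that of library 4. Without library 1 the neuronal median moved from -1.60 to -2.14, with 0 members called. At an unadjusted p under 0.05, 7 of 28 tested members were then lower, beside 732 lower among 17715 genes. Without library 4 the median was -1.31, with 1 of 31 lower at that p, beside 235 lower among 17688 genes. Scn11a did not pass the filter here, at 0, 0, 21.7 and 21.6 CPM in WT and 0.670, 0, 0.0565 and 0 CPM in HSCR libraries. Without WT library 3 the neuronal median was -1.05 and without WT library 4 it was -1.20, with 0 members at an unadjusted p under 0.05 in each case. Of all genes at that p, 169 were lower and 172 higher among 17589 without WT library 3. Without WT library 4, 206 were lower and 220 higher among 17583.

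For some neuronal members the mean was higher or alike in HSCR. Cacna1e, the R-type pore Cav2.3, was at 0.451, 4.27, 23.5 and 53.3 CPM in WT and 25.2, 4.38, 15.8 and 150.2 CPM in HSCR distal libraries. The highest value of all 16 libraries was in HSCR library 4, where the neuron markers were lowest and some position genes went against the label. The log2 fold change of Cacna1e was 1.31 ± 1.32, and it was at 9.90, 110.5, 68.7 and 43.3 CPM in WT and 41.8, 1.62, 31.8 and 70.7 CPM in HSCR proximal libraries. Cacng7 was at 39.2, 56.6, 49.6 and 48.7 CPM in WT and 44.2, 37.5, 24.5 and 60.8 CPM in HSCR distal libraries (-0.20 ± 0.32), and Cacna2d3 averaged 9.31 ± 6.47 and 11.4 ± 8.30 CPM (0.30 ± 0.67). Cacnb4, by contrast, was lower in mean in HSCR. It was at 2.61, 3.93, 6.41 and 7.78 CPM in WT and 1.84, 3.90, 3.02 and 3.56 CPM in HSCR distal libraries, with overlapping groups (-0.73 ± 0.50).

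Smooth muscle subunits of the distal colon overlapped between the genotypes, and WT libraries 1 and 2 and HSCR library 2 were low. Cacna1c was at 18.6, 26.6, 122 and 280.3 CPM in WT and 107, 15.5, 198 and 288 CPM in HSCR libraries (0.46 ± 0.95). Cacna2d1 was at 51.6, 39.0, 189.5 and 248 CPM in WT and 170.2, 50.8, 180.0 and 217 CPM in HSCR libraries (0.24 ± 0.63). Of the shared members, Cacna1h was at 20.6, 18.2, 139 and 229 and 90.5, 13.9, 174 and 229 CPM (0.33 ± 0.94), and Cacnb3 was at 90.2, 127, 128 and 109 and 135, 117, 84.1 and 77.4 CPM (-0.12 ± 0.27).

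**Figure D2:**
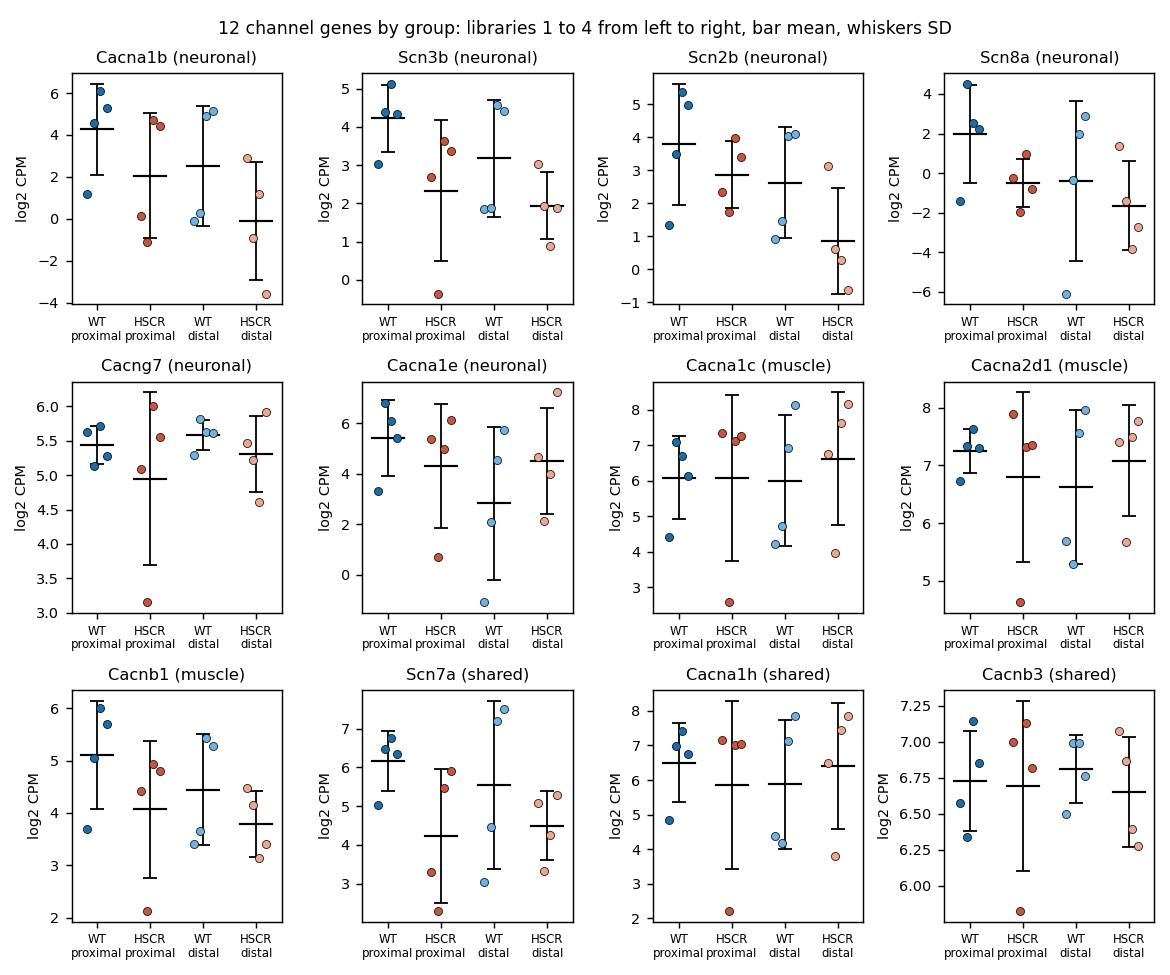
Log2 CPM (vertical axis, with a prior count of 0.5, so that a count of 0 sits near -6) of 12 channel genes in the 4 groups, with libraries 1 to 4 from left to right, bars at the mean and whiskers of 1 SD. Cacna1b, Scn3b and Scn2b show their lowest values in WT proximal library 1, HSCR proximal 1 and 2, WT distal 1 and 2 and HSCR distal 2 to 4, whereas Cacng7 lies between 24.5 and 64.1 CPM in all but HSCR proximal library 2.

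The difference between the segments was tested within each genotype. In WT, 29 members were tested among 16566 genes, and 0 were called, beside 0.0181% of all genes, with 0 at an unadjusted p under 0.05, beside 2.06% of all genes lower and 3.17% higher in the distal colon. DESeq2 called 0 members, beside 49 of 16343 genes, with 0 at an unadjusted p under 0.05, beside 545 genes lower and 600 higher. The likelihood ratio test called 0 members, beside 32 of 16566 genes, with 0 at that p, beside 376 genes lower and 474 higher. Limma-voom called 0 members, beside 4 of 16566 genes, with 2 higher at that p, beside 1174 genes higher. RUVr called 16, of which 14 were lower, among 3216 of 16566 genes. The neuronal median was -0.64 (distal over proximal), the muscle median -0.09 and the shared median 0.08. The smallest p belonged to Cacng1, a skeletal muscle gamma subunit, at 0, 0.587, 0.0496 and 0.432 CPM in proximal and 9.60, 2.33, 0 and 0 CPM in distal libraries (3.53 ± 2.08, edgeR adjusted p = 0.917, exact permutation p = 0.743), where limma-voom gave -1.62 and leaving out 1 library 1.57 to 4.21. It was followed by Cacna1e (-1.56 ± 1.11, or -2.61 to -1.04 with 1 library left out), Scn2b (-1.20 ± 0.90) and Cacnb1 (-0.64 ± 0.56).

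In HSCR, 25 members were tested among 17086 genes and 0 were called (0% of all genes), with 0 at an unadjusted p under 0.05, beside 0.778% of all genes lower and 0.708% higher in the distal colon. DESeq2 called 0 members, beside 5 of 16823 genes, with 0 below that p, beside 228 genes lower and 253 higher. The likelihood ratio test called 0 members and 0 of 17086 genes, with 0 members below that p, beside 187 genes lower and 143 higher. Limma-voom called 0 members and 0 of 17086 genes, with 6 members lower at that p, beside 857 genes lower. RUVr called 2, Scn2b and Scn3a, both lower, among 566 of 17086 genes. The neuronal median was -0.47 and the muscle median 0.05. Leaving out libraries in doubt moved these values. Without both HSCR libraries 1 the neuronal median was -1.19. At an unadjusted p under 0.05, 2 of 25 members were then lower, beside 543 lower among 17316 genes. Without HSCR proximal library 2 as well the median was -1.89, with 10 of 28 lower, beside 854 lower among 18189 genes. Among the 10 are the neuronal Scn2b, Scn11a, Cacna1b, Scn3b, Scn9a, Cacna1a and Scn1a and the muscle-class Cacnb1. None of the 10 had an adjusted p under 0.05 by edgeR, and of all 18189 genes 10 had one. Some position genes also went against the label of HSCR distal library 4. Without that library alone the neuronal median was -0.41. No member had an unadjusted p under 0.05, beside 79 lower and 70 higher among 17748 genes. The genotype difference itself was compared between the segments over 18619 genes. Of 33 members 0 were called (0% of all genes) and 0 had an unadjusted p under 0.05, beside 1.44% of all genes. DESeq2 likewise gave 0 and 0 members, beside 6 of 18463 genes called and 204 lower and 178 higher at that p.

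Several neuronal subunits were low in the libraries in which the neuron markers were low. The 8 libraries with the lowest neuron marker mean were WT proximal 1, HSCR proximal 1 and 2, WT distal 1 and 2, and HSCR distal 2, 3 and 4. Of the 33 members tested over all 16 libraries, 9 (27.3%) had these same 8 as their own lowest, beside 1.35% of 18619 genes. The 9 are Cacna1a, Cacna1b, Scn2a, Scn2b, Scn3a, Scn3b, Scn9a and Scn11a of the neuronal class, and Cacnb1, the beta subunit known from skeletal muscle. Another 6 shared 7 of the 8, among them Cacna2d2, Cacng8, Scn1a and Scn8a (neuronal) and Scn7a (shared), and 6.03% of all genes shared 7 or 8. This is a description over 16 libraries that share dissections and depth, and no p is attached to it.

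Cacnb1 (chr11:97892334-97913860, mm39) was at 12.9, 33.0, 64.4 and 52.0 CPM in WT proximal, 21.3, 4.36, 30.4 and 28.0 CPM in HSCR proximal, 10.6, 12.5, 42.9 and 39.0 CPM in WT distal and 22.3, 17.7, 8.75 and 10.6 CPM in HSCR distal libraries. Of HSCR over WT, the fitted log2 fold changes were -0.96 ± 0.62 (proximal) and -0.78 ± 0.54 (distal; edgeR adjusted p = 0.786 and 1). The skeletal muscle markers, by contrast, were highest in HSCR proximal library 1, WT distal library 1 and HSCR distal library 2, where Cacnb1 was at 21.3, 10.6 and 17.7 CPM. No member shared all 8 of its lowest libraries with the smooth muscle markers (0 of 33, beside 0.349% of all genes), and 2 of 33, Cacna1h and Cacna2d1, shared 7, beside 5.35% of all genes that shared 7 or 8.

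**Figure D3:**
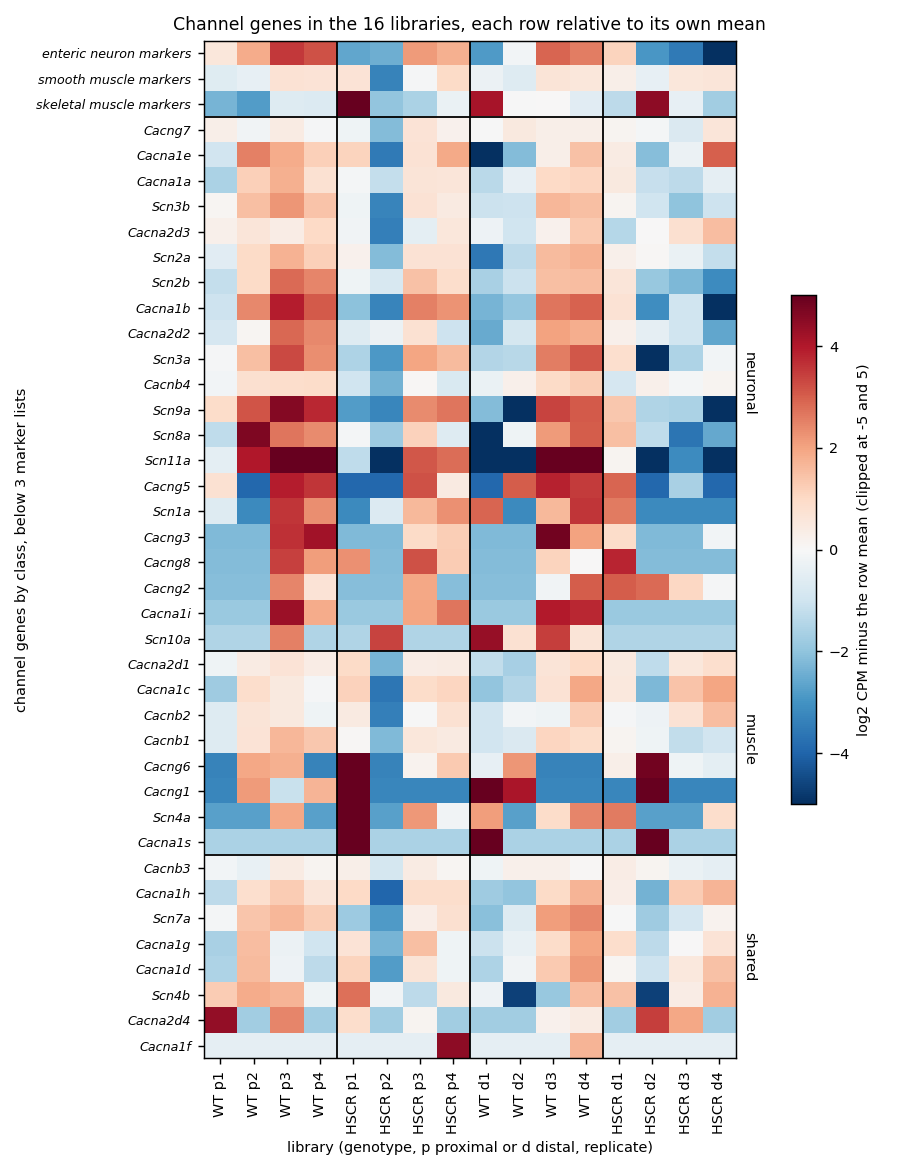
Heat map of log2 CPM for 37 channel genes (rows, by class) in the 16 libraries (columns), each row relative to its own mean, below the mean log2 CPM of 3 marker lists, with red above and blue below the mean. Of the 21 neuronal rows, 8 have their lowest values in the 8 libraries lowest in neuron markers, and Cacna1s and Cacng1 are highest in the libraries highest in skeletal muscle markers.

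The sequences before the start sites are shown for the genes with those 8 lowest libraries, to lay side by side the letters of genes with 1 pattern. RefSeq (GRCm38.p6) gives promoters for 30 of the 39 members, and 6 of the 9 genes above have one. Each line gives the 250 bases before the start, 5′ to 3′ on the coding strand. For genes with several starts the window richest in G and C is given, and Cacna2d1, a subunit of smooth muscle channels outside those 9, stands last for comparison. Capitals mark GC boxes (GGGCGG on either strand, overlapping matches included) and TATA boxes (TATAAA on either strand). The windows lie at chr2:24763153-24763402, minus strand (Cacna1b), chr11:98022628-98022877, minus strand (Cacnb1), chr2:65668436-65668685, plus strand (Scn2a), chr9:45117626-45117875, plus strand (Scn2b), chr2:66634963-66635212, minus strand (Scn9a), chr9:119825457-119825706, minus strand (Scn11a) and chr5:15934441-15934690, plus strand (Cacna2d1).
Cacna1b: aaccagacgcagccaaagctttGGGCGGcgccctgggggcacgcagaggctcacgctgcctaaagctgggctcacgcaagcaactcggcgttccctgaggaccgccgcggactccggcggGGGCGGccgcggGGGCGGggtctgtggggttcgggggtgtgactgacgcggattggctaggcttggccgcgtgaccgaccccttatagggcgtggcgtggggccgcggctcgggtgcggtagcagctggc
Cacnb1: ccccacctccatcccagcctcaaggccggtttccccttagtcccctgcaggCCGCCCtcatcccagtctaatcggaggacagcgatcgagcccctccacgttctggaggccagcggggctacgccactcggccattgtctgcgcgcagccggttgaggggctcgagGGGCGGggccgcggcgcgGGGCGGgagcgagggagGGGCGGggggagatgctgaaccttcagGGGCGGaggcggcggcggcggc
Scn2a: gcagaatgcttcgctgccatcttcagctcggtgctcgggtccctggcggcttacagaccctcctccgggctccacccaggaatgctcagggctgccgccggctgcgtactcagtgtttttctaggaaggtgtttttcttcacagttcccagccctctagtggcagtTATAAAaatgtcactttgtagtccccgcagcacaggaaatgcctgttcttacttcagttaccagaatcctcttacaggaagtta
Scn2b: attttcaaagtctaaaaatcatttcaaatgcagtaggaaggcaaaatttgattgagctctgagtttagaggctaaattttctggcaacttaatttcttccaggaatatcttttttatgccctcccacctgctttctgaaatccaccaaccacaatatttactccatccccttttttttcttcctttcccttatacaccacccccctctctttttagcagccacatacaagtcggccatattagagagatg
Scn9a: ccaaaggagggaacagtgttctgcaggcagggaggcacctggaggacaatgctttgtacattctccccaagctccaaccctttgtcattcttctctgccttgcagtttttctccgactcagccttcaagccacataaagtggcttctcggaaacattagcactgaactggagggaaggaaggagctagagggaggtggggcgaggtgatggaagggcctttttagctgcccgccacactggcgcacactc
Scn11a: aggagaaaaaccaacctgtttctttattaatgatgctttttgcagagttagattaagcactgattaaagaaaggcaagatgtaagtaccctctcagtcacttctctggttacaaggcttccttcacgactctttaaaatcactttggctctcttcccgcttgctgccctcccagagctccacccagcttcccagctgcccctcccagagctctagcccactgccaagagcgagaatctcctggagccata
Cacna2d1: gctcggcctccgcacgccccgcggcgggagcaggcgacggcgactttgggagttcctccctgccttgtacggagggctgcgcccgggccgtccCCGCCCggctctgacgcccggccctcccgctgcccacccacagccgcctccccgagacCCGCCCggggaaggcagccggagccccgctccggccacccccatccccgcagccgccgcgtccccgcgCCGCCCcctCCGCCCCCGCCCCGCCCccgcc

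The windows did not look alike. Those of Cacna1b and Cacnb1 were rich in G and C (72% and 73.2%) with 29 and 26 CpG pairs and with 3 and 5 GC boxes, like that of Cacna2d1 with 82.4%, 36 and 6. Those of Scn2b, Scn9a and Scn11a held 38.4%, 54.4% and 48% G and C, with 1, 5 and 3 CpG pairs and no GC box, and that of Scn2a 53.2% with 9 CpG pairs and a TATA box. The windows of Cacnb1 and Scn2a were picked for G and C. The other start of Cacnb1 had 56% with 1 CpG pair and no GC box, and that of Scn2a 29.6% with 2 CpG pairs and no TATA box. Over all 32851 promoters of that length the median was 52.4% with 6 CpG pairs, 32.7% held a GC box and 12.4% a TATA box. Of the 41 member promoters, 15 held a GC box and 2 a TATA box. Neither TCAGCACC, the left part of the RE1 element of neuronal genes (1.32% of all promoters), nor the CArG box of muscle genes (1.47%) was found on either strand of a member window. These are matches of letters in a window and not sites of a factor.

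Several of these genes are neighbours. Scn2a, Scn3a, Scn1a, Scn9a and Scn7a lie within 1330 kb of chromosome 2 (chr2:65287462-66615258, mm39). Scn2b and Scn4b lie within 36.4 kb of chromosome 9 (chr9:45029080-45065450). Scn4b, the beta4 subunit, was at 0.302 to 1.32 CPM in WT proximal libraries, beside 2.51 to 42.0 CPM for Scn2b. Exons of 19 members overlap those of a gene on the other strand, and as the library description names stranded and unstranded kits alike, reads of the pair cannot be told apart there.

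Subunits of skeletal muscle were high in a few libraries. Cacna1s, the Cav1.1 pore of the skeletal muscle triad, was at 17.1, 0, 0 and 0 CPM in HSCR proximal, 2.42, 0, 0 and 0 CPM in WT distal and 0, 2.84, 0 and 0 CPM in HSCR distal libraries, and had no count in any WT proximal library. Cacng1, its gamma1 partner, was at 53.9, 0, 0 and 0 CPM in HSCR proximal and 0, 33.0, 0 and 0 CPM in HSCR distal libraries, with the WT values given above. Scn4a (Nav1.4) and Cacng6 were highest in HSCR proximal library 1, at 7.09 and 5.47 CPM, and Cacng6 reached 4.16 CPM in HSCR distal library 2. The same 3 libraries, HSCR proximal 1, WT distal 1 and HSCR distal 2, led the 10 skeletal muscle markers with a mean log2 CPM of 7.16, 5.59 and 5.93, against -1.31 to 1.50 in the other libraries. Summed, the markers ranged from 40.2 to 238 CPM in WT proximal, 29.2 to 2819 in HSCR proximal, 133 to 1426 in WT distal and 114 to 1691 CPM in HSCR distal libraries, and Myh4 had no count in any WT proximal library. Their part in the values of these 4 subunits was not tested. Cacna1s, Cacng6 and Scn4a passed the filter in none of the pairwise comparisons, and Cacng1 in that of the WT segments alone.

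**Figure D4:**
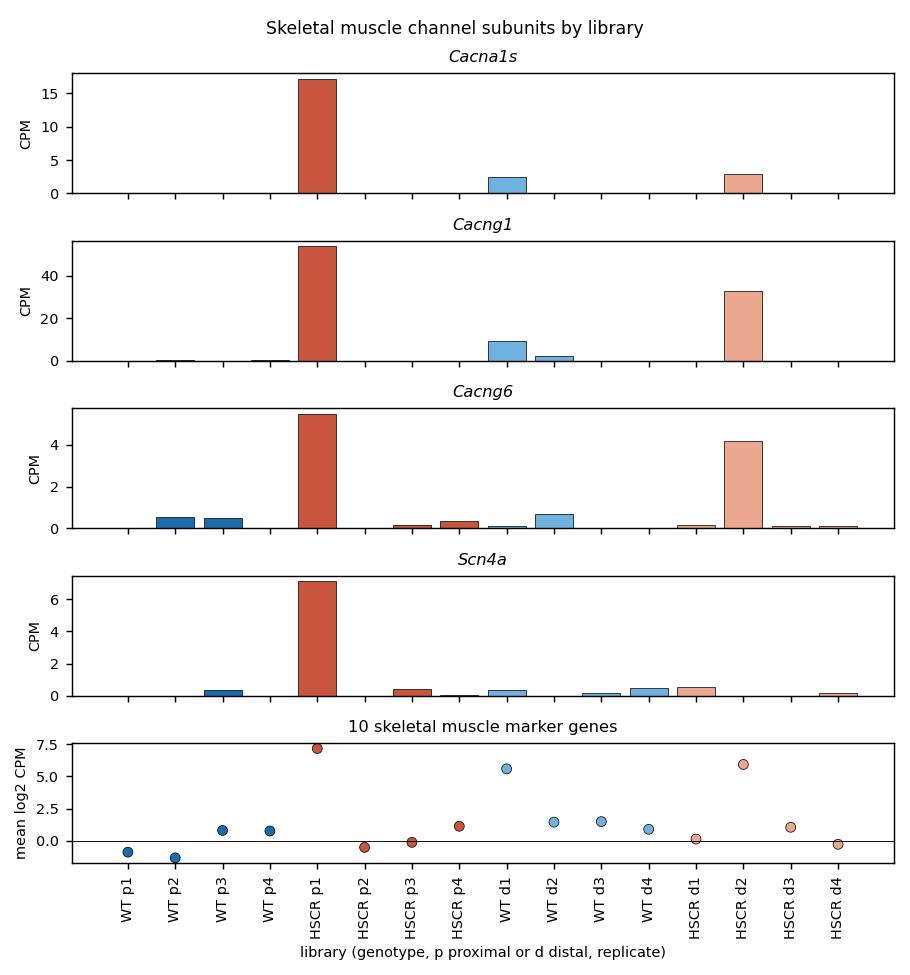
CPM of the skeletal muscle subunits Cacna1s, Cacng1, Cacng6 and Scn4a in each library (bars), above the mean log2 CPM of 10 skeletal muscle marker genes (points), coloured by group. Cacna1s and Cacng1 are highest where the markers are, in HSCR proximal library 1, WT distal library 1 and HSCR distal library 2.

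The smooth muscle pore and other long members varied beside another feature of the libraries. Cacna1c was under 30 CPM in WT proximal 1, HSCR proximal 2, WT distal 1 and 2 and HSCR distal 2, and at 70.2 CPM or above in the other 11 libraries. The same 5 libraries held the lowest values of Cacna1h and of Cacna2d1, and all 5 belong to the first name series. Their smooth muscle marker means were 10.04, 7.32, 10.36, 10.02 and 10.25 log2 CPM, and that of WT proximal library 2, in which Cacna1c was at 136 CPM, was 10.25. Gene length moved with these values. The median level of 2552 other protein-coding genes over 8000 bases long, relative to their own means and minus that of 1582 genes of at most 2000 bases, was -0.42, 0.24, 0.09 and -0.38 log2 units in WT proximal libraries 1 to 4, 0.18, -1.21, 0.17 and -0.27 in HSCR proximal, -0.44, 0.13, 0.23 and 1.12 in WT distal and -0.26, -0.50, 0.36 and 0.78 in HSCR distal libraries. Of the 5 libraries low in Cacna1c, 4 had the lowest values of this measure, and WT distal 4 and HSCR distal 4, with the highest, held 280 and 288 CPM of Cacna1c, the most of all. Cacna1c (21864 bases of exon) and Cacna1e (25228) are the longest members, while Cacng7 (2441) is among the shortest. The part of length in the members' values was not tested.

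**Figure D5:**
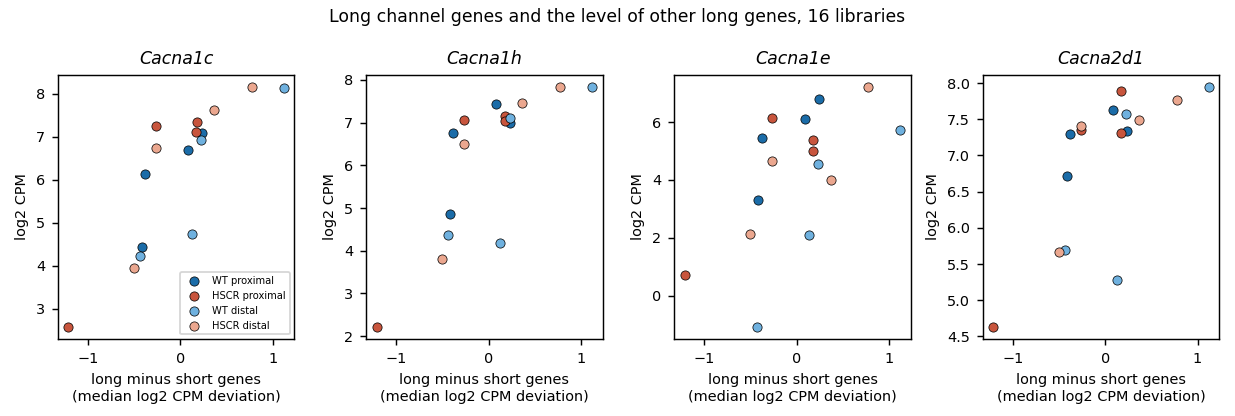
Log2 CPM (vertical axes) of Cacna1c, Cacna1h, Cacna1e and Cacna2d1 against the median level of long minus short genes (horizontal axes, log2 CPM deviation) in the 16 libraries, coloured by group. HSCR proximal library 2 lies at -1.21 with the lowest Cacna1c, Cacna1h and Cacna2d1, and WT distal library 4 and HSCR distal library 4 lie at 1.12 and 0.78 with the highest Cacna1c.

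T-type and L-type pores of the shared class had wide spreads in both genotypes. In the proximal colon Cacna1h was at 28.8, 127, 172 and 107 CPM in WT and 142, 4.60, 130.4 and 133 CPM in HSCR libraries (-0.10 ± 0.84). Cacna1g (Cav3.1) averaged 17.0 ± 17.9 and 20.6 ± 16.9 CPM (0.24 ± 0.85), and Cacna1d (Cav1.3, the L-type pore of pacemaking cells) 16.3 ± 17.9 and 16.9 ± 12.5 CPM (0.03 ± 0.87). Markers of interstitial cells of Cajal, the pacemakers of the gut, averaged 5.60 ± 0.46 log2 CPM in WT and 5.68 ± 1.03 in HSCR proximal libraries. Scn7a was lower in mean in HSCR, at 32.4, 89.3, 109 and 81.7 CPM in WT and 9.74, 4.87, 44.0 and 60.2 CPM in HSCR proximal libraries (-1.40 ± 0.74, edgeR adjusted p = 0.758), and the 7 glial markers averaged 5.47 ± 0.30 log2 CPM in WT and 3.57 ± 0.73 in HSCR proximal libraries (distal 4.95 ± 0.64 and 3.23 ± 1.26), whose part in the values of Scn7a was not tested. Cacnb3 was at 95.2, 81.1, 142 and 116 and 128, 56.7, 140.0 and 113 CPM, with HSCR library 2 lowest.

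The remaining members were near the floor of the assay. Cacna1f and Cacna2d4 of the retina, the T-type pore Cacna1i, the AMPA receptor subunits Cacng2, Cacng3 and Cacng8, and Scn10a had at most 91 counts in any library, and each had no count in at least 7 of 16. Cacng5 was tested in the distal colon, at 0, 1.77, 3.12 and 2.48 CPM in WT and 1.62, 0, 0.0565 and 0 CPM in HSCR libraries (-2.07 ± 1.89), and Scn1a (Nav1.1) averaged 0.743 ± 0.693 and 0.196 ± 0.391 CPM there (-1.84 ± 1.91). Scn10a, singled out here after its values were seen, was at 0.837, 0.0561, 0.434 and 0.0502 CPM in WT distal libraries and had no count in any HSCR distal library (exact permutation p = 0.029, the smallest possible). With at most 26 counts in a library it did not pass the filter. In all, 10 members passed the filter in none of the 4 pairwise comparisons.

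Genes that work with the channels were taken from 2 lists. Of 28 channel partners (anchors, release-site proteins, binding proteins and the sodium leak channel complex), 28 were tested in the proximal colon, where 2 were lower and 0 higher at an unadjusted p under 0.05 beside 4.13% and 2.48% of all genes, and the median log2 fold change was -0.71, beside 0.04 for all genes. They were Rims2, a scaffold that ties calcium channels to release sites (10.3 ± 4.33 CPM in WT and 2.48 ± 1.26 CPM in HSCR, log2 fold change -2.08 ± 0.61), and Unc80 of the sodium leak channel complex (-2.33 ± 0.94). Cabp1, a calcium-binding regulator of calcium channels, came next (-2.14 ± 1.00). In the distal colon 7 of 27 were lower at that p and 0 higher, beside 1.76% and 0.879% of all genes, with a median of -0.73, beside 0.04. They were led by Fgf11, a sodium channel binding factor (17.7 ± 3.45 CPM in WT and 8.51 ± 1.36 CPM in HSCR, -1.05 ± 0.31), Unc80 (-3.39 ± 1.13) and Rims2 (-1.49 ± 0.56). None had an adjusted p under 0.05 by edgeR.

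Genes of the calcium store were counted in the same way. Of 22 genes (ryanodine and IP3 receptors, pumps, junctophilins, calsequestrins and store-operated entry), 21 were tested in the proximal colon, with 1 higher and 0 lower at an unadjusted p under 0.05, beside 2.48% and 4.13% of all genes, and a median of 0.37, beside 0.04. This was Stim1, the sensor of store calcium (54.8 ± 17.0 CPM in WT and 85.5 ± 15.8 CPM in HSCR, log2 fold change 0.63 ± 0.27), followed by its relative Stim2 (0.60 ± 0.26) and by Ryr1, the release channel of skeletal muscle (4.00 ± 1.99), which is itself among the skeletal muscle markers. In the distal colon 22 were tested, 1 of them higher and 0 lower at that p, beside 0.879% and 1.76% of all genes, with a median of 0.18, beside 0.04. Casq1, a calsequestrin known best from skeletal muscle, was higher at an unadjusted p of 0.0288 by edgeR (8.36 ± 8.15 CPM in WT and 57.7 ± 83.4 CPM in HSCR). It was at 182 CPM in HSCR library 1, whose segment label is in doubt, and at 8.64 to 25.1 CPM in the other HSCR libraries. The next were the neuronal junctophilins Jph3 (-3.51 ± 1.60) and Jph4 (-1.39 ± 0.65). None had an adjusted p under 0.05 by edgeR.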

How the data were processed

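Poly(A) RNA of 16 LMMP libraries was measured, 4 in each of 4 groups. Per the labels the authors used HISAT2 (2.2.1) with the mm39 genome, and featureCounts (2.0.6) for counting genes. The deposited table holds raw counts and FPKM per library, with 56748 genes, of which 23907 had no count. Its columns of the authors' fold changes and p-values, and a second table holding their proximal comparison, were not used.

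Counts were fitted with edgeR (4.0.16, R 4.3.3): filterByExpr, TMM, quasi-likelihood test, Benjamini-Hochberg adjustment over all genes tested, and a call at an adjusted p under 0.05. A fold change is log2 of the second group over the first, with its SE. The study's methods name edgeR with RUVr, which was run as an alternative. Printed CPM use library sizes scaled by TMM over the 16 libraries, and log2 CPM a prior count of 0.5. The exact permutation tests are two-sided. Between 21384372 and 45831881 reads per library lay on genes, so counts limit the precision only of the low members. The edgeR steps were tested on simulated data.

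The members, classes, partner lists and marker lists (enteric neuron, enteric glia, smooth muscle, interstitial cells of Cajal, skeletal muscle, epithelium, enteroendocrine, adipocyte) were chosen with earlier results of these data known. Values in every library were given for the 4 members of each class with the highest mean FPKM, and for the 4 with the smallest p in each comparison of genotypes and in that of the WT segments, which are 17 genes, and 2 of these are not reported here. Other members and the settings without libraries in doubt were chosen after seeing the data. Alternatives were RLE scaling, no mitochondrial genes (37), 2 other filters, DESeq2 (1.42.0), the likelihood ratio test, limma-voom (limma 3.58.1), 1 model of all libraries, the replicate block, the name series as a term and leaving out each library. Promoters are from RefSeq (GRCm38.p6), and positions from the deposited table (mm39).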

Additional observations from a re-analysis of the deposited data

Results flagged for a closer look

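Of 68 groups of 4 libraries (17 genes in 4 groups), 8 held a library far from the other 3 by Dixon's criterion at the 95% level. The number that chance would give is not known, because these genes vary together, were partly chosen by p and have skewed CPM. Scn2b and Scn8a stood high in HSCR distal library 1, at 8.77 and 2.57 CPM, beside 0.639 to 1.53 and 0.0565 to 0.365 CPM in the other 3, and its position genes go against its segment label. Cacna1c and Cacna1h stood low in HSCR proximal library 2, at 5.91 and 4.60 CPM, beside 139.6 to 164 and 130.4 to 142 CPM, and smooth muscle markers were also lowest there. Cacng1 stood at 53.9 CPM in HSCR proximal library 1 and at 33.0 CPM in HSCR distal library 2, with no count in the other 3 libraries of either group. Cacnb4 stood low in WT proximal library 1, at 2.94 CPM, beside 5.72 to 6.22 CPM. Cacna1e stood at 150.0 CPM in HSCR distal library 4, beside 4.38 to 25.2 CPM, and some position genes of that library go against its segment label. The causes of these values were not tested.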

How the results depend on the processing

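A recomputed median counted as moved if it shifted by more than the spread between libraries (1 SD), and a count of members called if it was above 0. That spread is wide, so a shift such as the proximal neuronal median from -1.35 to -0.47 did not count as moved. Over the planned settings and those chosen after seeing the data, 253 counts and medians had not moved and 5 had. The first 4 are counts of members called by RUVr with 4 factors, which were 12 (proximal colon), 8 (distal colon), 16 between the WT segments and 2 between the HSCR segments, where the quasi-likelihood test called 0, and the cause was not tested. The other is the muscle median of the distal colon. With each library left out in turn that median lay between -0.48 and 0.86, and the other muscle medians between -0.43 and 0.56 (proximal), -0.56 and 0.32 (WT segments) and -0.79 and 0.38 (HSCR segments). Neuronal medians lay between -1.83 and -0.82 (proximal), -2.14 and -1.05 (distal), -1.02 and -0.23 (WT segments) and -1.11 and -0.26 (HSCR segments), and members called stayed at 0. For Cacng1 between the WT segments, limma-voom gave a log2 fold change of -1.62 in place of 3.53, and the cause was not tested.

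Replicate numbers are shared between groups, but the correlation of deviations of same-numbered libraries was over 0.1 for every pair in no comparison (-0.11 to 0.30 proximal, -0.24 to 0.46 distal, 0.09 to 0.45 WT segments, 0.01 to 0.41 HSCR segments). With the replicate block the neuronal median was -1.44, -1.19, -1.03 and -0.61 in these comparisons. In none of them, nor for the difference between segments, was a member called. At an unadjusted p under 0.05, 5 members were lower in the proximal colon, beside 841 lower among 16664 genes. Between the WT segments 5 were lower, beside 809 lower among 16566 genes. Of the 10 members that passed no filter in a comparison of 2 groups, 7 had at most 91 counts in any library.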
